A study of Homo sapiens with 6 samples.

Results

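Histone lysine methyltransferases and demethylases were examined in the human neuroblastoma cell line SH-SY5Y by RNA sequencing of 3 libraries from cells given SGC707 and 3 from cells given the solvent DMSO. Both groups were labelled wild type. SGC707 inhibits PRMT3, an enzyme that methylates arginines. The members are the gene rows whose symbol begins with KMT or KDM and a digit or with SETD, together with NSD1, NSD2, NSD3, EHMT1, EHMT2, EZH1, EZH2, SUV39H1, SUV39H2 and DOT1L, leaving out KMT2C, KMT2D and KDM6A. They numbered 46 of 19610 gene rows, and 43 had enough counts to be tested. KDM4E and KDM4F had 0 counts in all 6 libraries, which allows up to 0.194 to 0.257 CPM (counts scaled to a library total of 1000000) by counting error alone, and the Y-linked KDM5D was not tested. The sources used here give neither dose nor duration of treatment. Nothing in them says that the replicates, lettered A, B and C, were separate cultures, so p-values measure only the spread among the libraries, possibly a technical one. In these bulk samples, fewer cells of a type and less RNA per cell cannot be told apart.

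These enzymes place and remove methyl groups on lysines of histones H3 and H4. Most methyltransferases carry a SET domain and use S-adenosylmethionine, the methyl donor that arginine methyltransferases such as PRMT3 also use. Methylation of H3K4 marks promoters and enhancers, H3K36 and H3K79 methylation lie over transcribed genes, and H3K9, H3K27 and H4K20 methylation are known from repressed chromatin. Demethylases fall into the flavin-dependent KDM1 family and the larger JmjC family, which needs iron and 2-oxoglutarate.

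Total counts were 11658728 to 15437602 per library. Mitochondrially encoded transcripts took 46.7% to 60.7% of them with DMSO and 24.3% to 37.7% with SGC707, so the counts on nuclear genes were 6066305 to 6327895 and 7559322 to 8999358. The part of this difference in the results was not tested beyond a fit without the mitochondrially encoded genes, given in the last section. Levels below are CPM normalised with the trimmed mean of M-values (TMM), and the log2 fold change is SGC707 over DMSO from the quasi-likelihood test of edgeR. SGC707 C differed most in how its counts followed transcript GC content (Spearman correlation of its deviations with GC across 12162 genes of -0.758, against -0.123 to 0.524 in the other 5), and without it the log2 fold changes of 35 of the 43 tested members moved by over 1.5 times, 9 of them with a change of sign. Where such an estimate of a member is printed, the value without SGC707 C stands beside it. Estimates near 0 pass a limit of 1.5 times easily, and the same count was not made with other libraries left out. Of 10 markers of adrenergic neuroblastoma, 9 had a mean count of at least 10, while the noradrenaline synthesis gene TH was at 0 in every library. The 6 markers of the mesenchymal neuroblastoma state summed to 287, 194 and 307 CPM of all counts with DMSO. With SGC707 they summed to 493, 445 and 346, all above DMSO on this scale. The 10 adrenergic markers summed to 3130, 3000 and 3190 with DMSO and to 4200, 3750 and 2590 with SGC707. This scale includes mitochondrial counts and lacks the TMM factors, which were 0.663 to 0.937 with DMSO and 1.06 to 1.39 with SGC707. A sum that is higher on it need not be higher on the TMM scale. Divided by these factors, the mesenchymal sums of the groups overlapped. The adrenergic sums, divided in the same way, were lower in every SGC707 library than in every DMSO library. The part of either list in the results was not tested. The summed level of the 4 Schwann-like markers was 0.907 to 2.27 CPM of all counts, that of the 4 epithelial markers 0.907 to 2.32 CPM and that of the 4 leukocyte markers 0.194 to 1.01 CPM.

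No member passed the test at an adjusted p of 0.05, a level that 0.0246% of the 12196 tested genes reached (0.0082% higher and 0.0164% lower with SGC707). At an unadjusted p under 0.05 there were 5 members, or 11.6%, against 12.8% of all tested genes (5.62% higher and 7.13% lower), so the share of the family was near the background. KMT2E, SETD1A and SETD1B of the H3K4 methyltransferase group and the H3K27 demethylase gene KDM6B had lower levels with SGC707, and SETD6 had a higher one. Among the 43 tested members 18 log2 fold changes were positive and 25 negative, with a median of -0.07, beside 6440 positive and 5756 negative and a median of 0.03 over all tested genes. Of the other tools, limma-voom called 0 members and DESeq2 called 4 (KMT2E, KDM6B and SETD1A lower, SETD6 higher). These were 9.30% of the members, against 2.52% of all genes (0.443% higher and 2.07% lower). Both shares count genes that DESeq2 left without an adjusted p, among them KMT5C, KDM4D and KDM8. SETD6 passed narrowly, at a DESeq2 adjusted p of 0.0498. Without SGC707 C, edgeR also called 4 members, KMT2E, SETD5 and SETDB2 lower and SETD6 higher, or 9.30% against 9.26% of all genes (3.73% higher and 5.53% lower). In that fit 14 members had an unadjusted p under 0.05, 2 higher and 12 lower, or 32.6% against 30.0% of all genes (14.5% higher and 15.5% lower). Scaled by library totals alone, 9 members were called, all higher, or 20.9% against 21.4% of all genes (21.1% higher and 0.254% lower). That scaling put the median log2 fold change at 0.61 for the members and 0.69 for all tested genes, and every direction given below is that on the TMM scale.

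**Figure D1:**
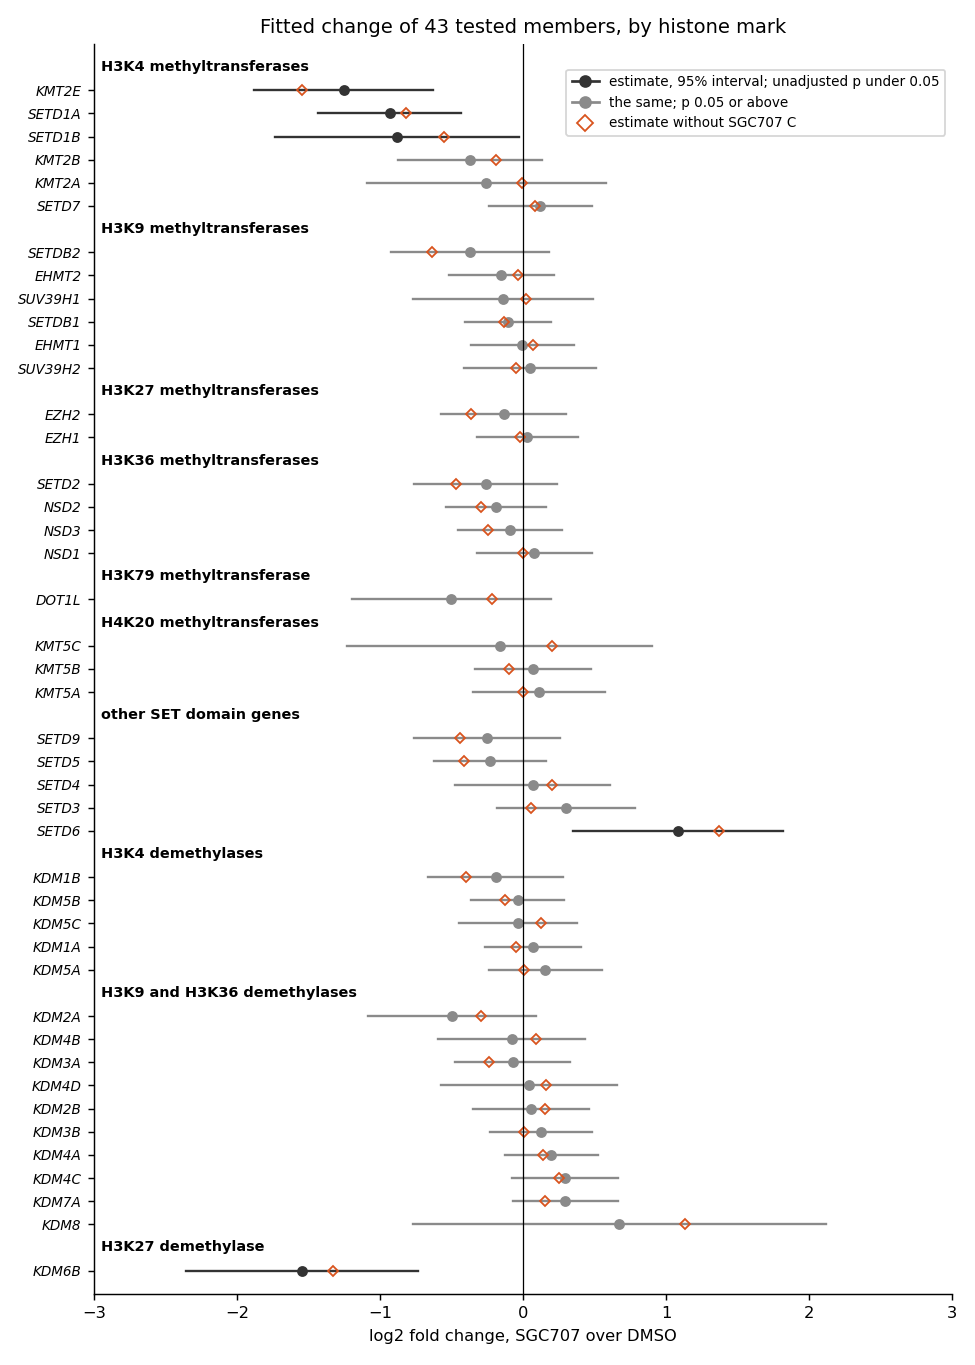
Log2 fold change (SGC707 over DMSO) of the 43 tested members, ordered by role group, most of which are named by a histone mark. Circles and lines are the edgeR estimate and its 95% interval, dark where the unadjusted p was under 0.05, and open diamonds the estimate without SGC707 C; 3 members, KMT2E, KDM6B and SETD6, had an estimate of at least 2-fold, and none passed at an adjusted p of 0.05.

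The promoters of KMT2E, KDM6B and SETD6 are shown because these were the 3 members with an estimated change of at least 2-fold. Each sequence runs from 250 bases before the first start that RefSeq lists for the gene (GRCh38.p14, plus strand) up to that start or to the first annotated exon of the gene. Capitals mark the GC box GGGCGG, searched on both strands.
KMT2E, chr7:105013955-105014178: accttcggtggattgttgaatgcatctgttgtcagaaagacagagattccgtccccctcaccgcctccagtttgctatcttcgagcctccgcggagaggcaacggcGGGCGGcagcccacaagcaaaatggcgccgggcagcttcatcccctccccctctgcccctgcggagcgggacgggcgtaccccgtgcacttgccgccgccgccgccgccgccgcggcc
KDM6B, chr17:7833967-7834216: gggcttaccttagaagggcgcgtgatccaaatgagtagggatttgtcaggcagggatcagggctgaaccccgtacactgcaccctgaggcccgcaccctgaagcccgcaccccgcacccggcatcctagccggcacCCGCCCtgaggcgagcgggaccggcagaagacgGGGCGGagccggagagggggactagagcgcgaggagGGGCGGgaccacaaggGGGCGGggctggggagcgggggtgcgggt
SETD6, chr16:58515267-58515478: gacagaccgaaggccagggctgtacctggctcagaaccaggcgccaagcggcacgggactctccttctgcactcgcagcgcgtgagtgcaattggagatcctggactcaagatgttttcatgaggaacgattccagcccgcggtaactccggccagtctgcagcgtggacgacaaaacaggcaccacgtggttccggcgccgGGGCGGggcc
The KDM6B stretch holds 4 GC boxes, and the KMT2E and SETD6 stretches hold 1 each. The start used for KDM6B lies upstream of the gene start in GENCODE release 29, at 7839904. RefSeq also lists a second KDM6B start, whose 250 upstream bases (7839667 to 7839916) reach that gene start. That stretch, not printed here, holds 0 GC boxes and has 50.4% GC, against 4 and 70.4% in the printed one. Over the 250 bases upstream of all starts that RefSeq lists for 40 of the 43 tested members, 46 of 59 windows (77.97%) held a GC box, beside 63.7% of the windows of all tested genes and 42.6% of all promoter windows. No member window held TATAAA on either strand, a match found in 5.52% of the windows of tested genes and 10.7% of all windows. CCAAT was found in 33.9% of member windows and 33.3% of those of tested genes. These matches describe letters only, and the promoters with a GC box belong to members with lower, higher and nearly equal levels.

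KMT2E (chromosome 7, 105014179 to 105114361, GRCh38) encodes a SET domain protein that reads H3K4 methylation with its PHD finger and is not known as an active methyltransferase. With replicates given in the order A, B, C throughout, its level was 619.8, 728.4 and 425.4 normalised CPM with DMSO and 204.8, 200.4 and 337.7 with SGC707. All 3 SGC707 libraries lay below all 3 DMSO libraries, with SGC707 C nearest to the DMSO range. The mean was 591.2 ± 153.5 with DMSO and 247.6 ± 78.03 with SGC707 (SD, n = 3). This gave -1.26 as the log2 fold change (SE 0.27), with an edgeR adjusted p of 0.190. The estimate was -1.55 without SGC707 C (edgeR adjusted p = 0.0278) and ranged from -1.08 to -1.55 with 1 library left out. At -1.08, without DMSO B, the edgeR adjusted p was 0.707. Per kb of its longest coding transcript KMT2E was the most abundant member with DMSO, at 86.0 ± 22.3 normalised CPM per kb, and with SGC707 it stood at 36.03, below KDM1A (81.7) and EZH2 (36.8). Exons of SRPK2 and of the antisense RNA KMT2E-AS1 overlap KMT2E exons on the opposite strand by 98 and 143 bases, and no source used here says whether the counting used strand.

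SETD1A (chromosome 16, 30957294 to 30984664) and SETD1B (chromosome 12, 121804180 to 121832584) encode the catalytic subunits of the SET1 complexes that trimethylate H3K4. SETD1A stood at 96.3, 91.8 and 60.9 normalised CPM with DMSO and at 47.1, 47.2 and 35.9 with SGC707. SETD1B stood at 43.6, 48.5 and 31.2 with DMSO and at 29.5, 26.7 and 10.6 with SGC707. In both genes the groups did not overlap, and replicate C was the lowest library within each group. The log2 fold change of SETD1A was -0.93 (SE 0.22, edgeR adjusted p = 0.202) and that of SETD1B -0.88 (SE 0.37, edgeR adjusted p = 0.379). Without SGC707 C they were -0.82 and -0.55, so the SETD1B value moved by more than 1.5 times. The ratio of SETD1A to SETD1B per kb was 2.40 to 2.80 with DMSO, 2.03 and 2.24 in SGC707 A and B, and 4.30 in SGC707 C.

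The other H3K4 methyltransferase genes did not separate the groups. KMT2B (chromosome 19, 35718019 to 35738878), an H3K4 methyltransferase of the trithorax type, stood at 58.7, 60.8 and 47.4 normalised CPM with DMSO and 50.03, 47.8 and 30.9 with SGC707, a log2 fold change of -0.37 (95% interval -0.88 to 0.13) that was -0.19 without SGC707 C. KMT2A, its paralog and a frequent fusion partner in leukaemia, varied widely within groups, at 159.9, 67.2 and 133.2 with DMSO and 111.4, 128.2 and 61.6 with SGC707. The highest DMSO library exceeded the lowest 2.38-fold, and the log2 fold change of -0.26 had a 95% interval from -1.09 to 0.58 and was -0.007 without SGC707 C. SETD7, which monomethylates H3K4 and several non-histone proteins, stood at 22.3 to 24.6 with DMSO and 24.5 to 26.8 with SGC707 (log2 fold change 0.12, or 0.08 without SGC707 C). Of the 6 genes placed in this role, KMT2E included, 5 were negative and 1 positive. Their median was -0.63, with -0.37 without SGC707 C and -0.45 after a correction for GC content and length.

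**Figure D2:**
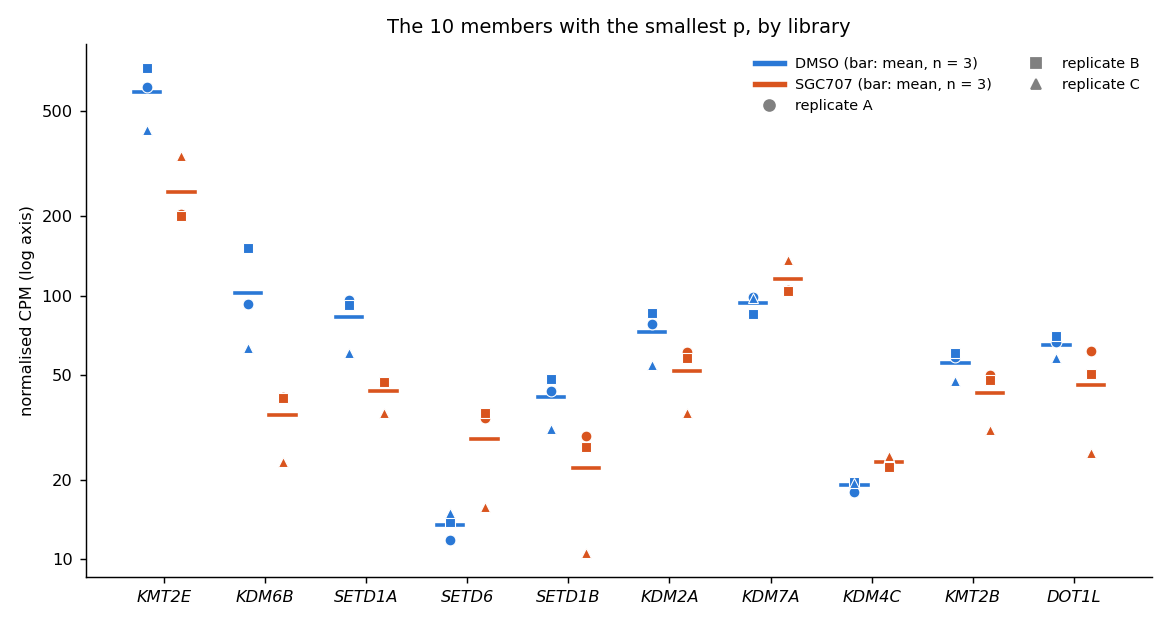
Normalised CPM (log axis) of the 10 members with the smallest p, in each of the 3 DMSO and 3 SGC707 libraries; markers give the replicate letter and bars the group means. KMT2E, KDM6B, SETD1A and SETD1B have all SGC707 libraries below all DMSO libraries, and SETD6 has SGC707 A and B near 35 and SGC707 C at 15.7, next to the highest DMSO library.

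KDM6B (chromosome 17, 7839904 to 7854796), also called JMJD3, removes methyl groups from H3K27 and is known as an inducible gene. Its level was 93.0, 151.7 and 63.6 normalised CPM with DMSO and 41.3, 40.8 and 23.3 with SGC707. The groups did not overlap, and the DMSO libraries themselves spread 2.39-fold. The means were 102.8 ± 44.9 and 35.1 ± 10.2 (SD, n = 3), with -1.55 (SE 0.35) as the log2 fold change and an edgeR adjusted p of 0.202. It was -1.16 without DMSO B and -1.33 without SGC707 C.

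The groups overlapped for EZH2 and EZH1, the methyltransferases of the same mark. EZH2 (chromosome 7, 148807383 to 148884321), the main catalytic subunit of Polycomb repressive complex 2 in dividing cells, stood at 105.7, 111.9 and 103.0 normalised CPM with DMSO and 81.3, 85.5 and 124.9 with SGC707. SGC707 A and B lay below the DMSO libraries and SGC707 C above them, and the log2 fold change was -0.14 (95% interval -0.58 to 0.30), or -0.36 without SGC707 C. EZH1, the paralog known from resting cells, had levels of 25.9 to 26.98 with DMSO and 25.9 to 28.8 with SGC707 (log2 fold change 0.03, 95% interval -0.32 to 0.38, or -0.02 without SGC707 C). Per kb, EZH2 exceeded EZH1 by 7.06 ± 0.258 times with DMSO and 6.25 ± 1.18 times with SGC707 (SD, n = 3), and the ratios of both groups overlapped. Of 12 tested partner genes of this complex 10 were positive and 2 negative, with a median log2 fold change of 0.18. EED, a core subunit that binds the methylated product, stood at 9.74 ± 1.66 and 16.2 ± 1.48 normalised CPM (SD, n = 3). Its log2 fold change was 0.73 (edgeR adjusted p = 0.264), and EPOP, an accessory subunit, had 0.64 (edgeR adjusted p = 0.457).

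SETD6 (chromosome 16, 58515479 to 58521181) encodes a methyltransferase known for the NF-kB subunit RELA. It stood at 11.8, 13.9 and 14.9 normalised CPM with DMSO and at 34.4, 35.8 and 15.7 with SGC707. SGC707 A and B were far above the DMSO libraries, while SGC707 C lay just above the highest of them. The means were 13.6 ± 1.59 and 28.7 ± 11.2 (SD, n = 3). The log2 fold change was 1.08 (SE 0.32, edgeR adjusted p = 0.266). It was 1.37 without SGC707 C (edgeR adjusted p = 0.0272) and 0.89 without SGC707 B (edgeR adjusted p = 0.631). The highest edgeR adjusted p with 1 library left out was 0.857, without DMSO B. The SETD6 transcript has 46.7% GC. Exons of CNOT1 on the opposite strand cover 1086 of the 5078 exonic bases of SETD6. CNOT1 itself stood at 255.9, 273.2 and 242.4 normalised CPM with DMSO and 169.4, 179.7 and 232.2 with SGC707. Its log2 fold change was -0.41 (SE 0.16, edgeR adjusted p = 0.351). A pseudogene, SETD6P1, is also annotated. The part of CNOT1 or of the pseudogene in the SETD6 counts was not tested.

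The other SET domain genes outside a fixed mark were SETD3, SETD4, SETD5 and SETD9. SETD5 (chromosome 3, 9397615 to 9479240), a chromatin-associated protein, was the most abundant of them per kb and stood at 164.4, 159.5 and 168.4 normalised CPM with DMSO and 122.97, 123.96 and 172.9 with SGC707. SGC707 A and B were below and SGC707 C above every DMSO library, and the estimate was -0.23 on the log2 scale (edgeR adjusted p = 0.599) and -0.42 without SGC707 C (edgeR adjusted p = 0.0361). SETD3, which methylates a histidine of actin, showed SGC707 C at 66.1 and the other 5 libraries at 36.9 to 43.8 normalised CPM, and its log2 fold change of 0.30 was 0.06 without SGC707 C. SETD4 and SETD9 had log2 fold changes of 0.07 and -0.25 with overlapping groups, and 0.20 and -0.44 without SGC707 C.

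Among the 6 H3K9 methyltransferase genes 5 log2 fold changes were negative and 1 positive, all between -0.37 and 0.05. EHMT2 (chromosome 6, 31879759 to 31897687), also called G9a, was the most abundant of them per kb and stood at 95.7, 100.3 and 91.5 normalised CPM with DMSO and 98.5, 88.5 and 71.4 with SGC707. Its groups overlapped, and the log2 fold change of -0.15 had a 95% interval from -0.52 to 0.22 and was -0.04 without SGC707 C. The antisense RNA EHMT2-AS1 overlaps EHMT2 exons by 592 bases. EHMT1, its partner in a heterodimer, was nearly equal in the group means, at 48.4 ± 4.53 and 48.2 ± 4.83 (SD, n = 3). SETDB1, which acts with KRAB zinc finger proteins at repeats, stood at 92.2, 93.9 and 90.4 with DMSO and 79.7, 88.5 and 88.5 with SGC707, so its groups did not overlap although the log2 fold change was only -0.11 (edgeR adjusted p = 0.761). SETDB2 stood at 19.6, 18.9 and 22.6 with DMSO and 12.5, 13.8 and 21.0 with SGC707, with a log2 fold change of -0.37 that was -0.63 without SGC707 C (edgeR adjusted p = 0.0487). SUV39H1 and SUV39H2, the enzymes of pericentromeric heterochromatin, had -0.14 and 0.05, and 0.02 and -0.05 without SGC707 C. Of 12 partner and reader genes of this mark, 1 was higher and 2 were lower at an unadjusted p under 0.05, beside 5.62% higher and 7.13% lower of all tested genes. ATF7IP, the partner of SETDB1, stood at 105.8 ± 9.44 and 64.4 ± 5.13 normalised CPM (SD, n = 3; log2 fold change -0.72, edgeR adjusted p = 0.178), and the HP1 gene CBX3 had 0.47 (edgeR adjusted p = 0.311).

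Of the H3K36 methyltransferases, SETD2 (chromosome 3, 47016429 to 47163967), the enzyme of trimethylation over gene bodies, was the highest per kb. It stood at 144.9, 149.1 and 104.2 normalised CPM with DMSO and 91.0, 100.8 and 140.4 with SGC707, so each group had its C library on the side of the other group. Its log2 fold change was -0.26 (95% interval -0.76 to 0.24), and -0.47 without SGC707 C. NSD1, NSD2 and NSD3, which add 1 or 2 methyl groups to H3K36, had log2 fold changes of 0.08, -0.19 and -0.09 with overlapping groups, and 0.002, -0.30 and -0.25 without SGC707 C. DOT1L (chromosome 19, 2164149 to 2232578), the H3K79 methyltransferase, stood at 66.8, 70.0 and 58.2 with DMSO and 61.8, 50.4 and 25.3 with SGC707, and its log2 fold change of -0.50 (edgeR adjusted p = 0.520) was -0.22 without SGC707 C. Exons of PLEKHJ1 and of an antisense RNA overlap those of DOT1L on the opposite strand by 529 and 764 bases. All 4 tested partners of DOT1L had negative values, among them MLLT10 (-0.61, edgeR adjusted p = 0.277) and MLLT3 (-0.42, edgeR adjusted p = 0.562), which were -0.78 and -0.74 without SGC707 C. The H4K20 genes KMT5A, KMT5B and KMT5C had log2 fold changes of 0.11, 0.07 and -0.16, and of 0.001, -0.10 and 0.20 without SGC707 C. KMT5A (chromosome 12, 123383773 to 123409358), the monomethylating enzyme of the cell cycle, stood at 31.3, 24.6 and 32.5 with DMSO and 33.6, 25.6 and 36.3 with SGC707, and KMT5C was lowest in SGC707 C, at 2.49 against 4.50 to 8.77 in the other libraries.

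The demethylases of H3K4 did not separate the groups. KDM1A (chromosome 1, 23019443 to 23083689), also called LSD1, stood at 233.8, 240.9 and 240.8 normalised CPM with DMSO and 215.2, 247.3 and 287.4 with SGC707, or 77.96 ± 1.34 (SD, n = 3) per kb with DMSO, the second highest level per kb of all members in that group. The DMSO libraries lay within the SGC707 range, and the log2 fold change was 0.07 (95% interval -0.27 to 0.41), or -0.05 without SGC707 C. KDM5A, KDM5B and KDM5C, JmjC demethylases of trimethylated H3K4, had 0.15, -0.04 and -0.03, and KDM1B had -0.19. Without SGC707 C these were 0.004, -0.13, 0.12 and -0.40. KDM5C, an X-linked gene, stood at 112.2 to 116.8 with DMSO and at 125.6, 125.7 and 85.2 with SGC707. Of 11 tested genes of the CoREST complex that holds KDM1A, 3 were positive and 8 negative with a median of -0.14. PHF21A, its reader of unmethylated H3K4, stood at 147.9 ± 34.4 and 71.4 ± 18.5 normalised CPM (SD, n = 3; log2 fold change -1.05, edgeR adjusted p = 0.202), and GSE1 had -0.99 (edgeR adjusted p = 0.244).

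The H3K9 and H3K36 demethylases held 10 tested genes, 7 positive and 3 negative, with a median log2 fold change of 0.09. KDM7A, KDM4C and KDM4A had all SGC707 libraries above all DMSO libraries. KDM7A (chromosome 7, 140084746 to 140177035), a demethylase of H3K9 and H3K27, stood at 98.4, 85.3 and 97.7 normalised CPM with DMSO and 105.0, 104.5 and 136.0 with SGC707 (log2 fold change 0.29, 95% interval -0.07 to 0.66), or 0.15 without SGC707 C. KDM4C (chromosome 9, 6720863 to 7175648), which removes trimethylation from H3K9 and H3K36, stood at 18.0, 19.7 and 19.5 with DMSO and 23.1, 22.4 and 24.6 with SGC707. Its log2 fold change was 0.29 (95% interval -0.08 to 0.67, edgeR adjusted p = 0.500) and 0.25 without SGC707 C. Exons of a noncoding RNA, AL354707.1, overlap KDM4C exons on the same strand by 135 bases. KDM4A, of the same enzyme group as KDM4C, had 0.20.

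KDM2A (chromosome 11, 67119269 to 67258087), the H3K36 demethylase that binds unmethylated CpG islands, stood at 78.2, 86.0 and 54.6 normalised CPM with DMSO and 61.1, 58.1 and 35.8 with SGC707. Each C library was the lowest of its group, and the log2 fold change of -0.50 (edgeR adjusted p = 0.467) was -0.29 without SGC707 C. KDM3A (chromosome 2, 86440647 to 86492716), the H3K9 demethylase induced by hypoxia, was the most abundant of the role per kb with DMSO (14.1, against 12.6 for KDM4A), while KDM4A was higher with SGC707 (14.5 against 13.4). KDM3A stood at 69.5, 63.9 and 74.5 normalised CPM with DMSO and 56.6, 61.2 and 80.0 with SGC707, with overlapping groups, and its log2 fold change of -0.07 was -0.24 without SGC707 C. KDM2B, KDM3B, KDM4B and KDM4D had log2 fold changes of 0.05, 0.13, -0.08 and 0.04, and of 0.16, 0.003, 0.09 and 0.16 without SGC707 C. KDM8, a JmjC protein, was counted 13, 16 and 16 times with DMSO and 47, 54 and 6 times with SGC707, and its log2 fold change of 0.67 had a 95% interval from -0.77 to 2.12 and was 1.13 without SGC707 C (edgeR adjusted p = 0.0533).

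**Figure D3:**
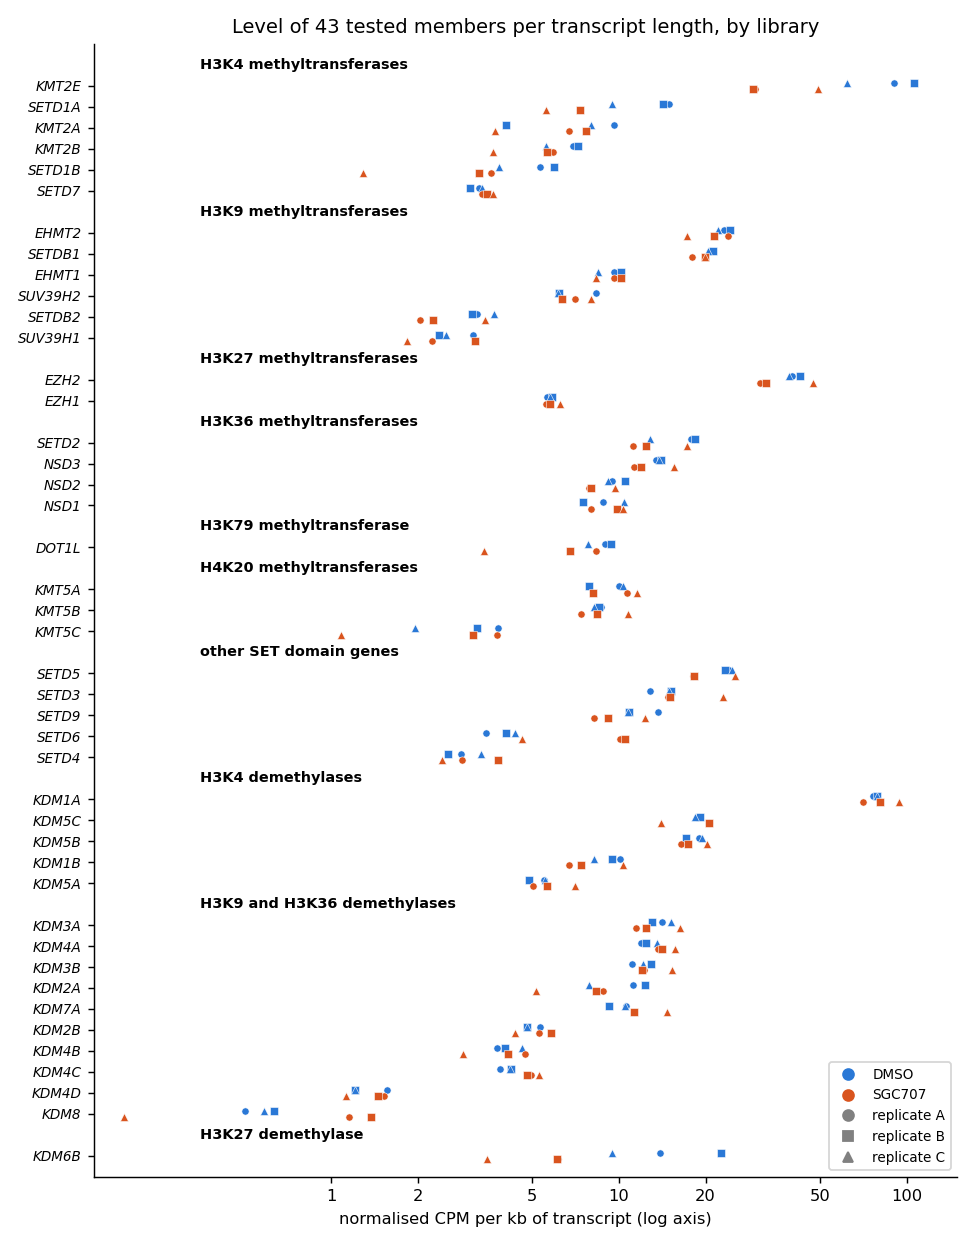
Normalised CPM per kb of the longest coding transcript (log axis) of the 43 tested members in each library, by histone mark; colours are the groups and markers the replicate letters. KMT2E and KDM1A lead with 86.0 and 77.96 in the DMSO mean, EZH2 follows at 40.5, and KDM8 is lowest at 0.575.

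Groups that did not overlap were found for 9 members, 4 higher and 5 lower with SGC707, beside 20.6% of all tested genes (10.8% higher and 9.78% lower). The 4 higher were SETD6, KDM4A, KDM4C and KDM7A, and the 5 lower were KMT2E, SETD1A, SETD1B, SETDB1 and KDM6B. Grouped by role, the 27 genes placed with the methyltransferases had 9 positive and 18 negative values (median -0.14). They include KMT2E, not known as an active methyltransferase, and SETD3, which methylates a histidine of actin. Of the 16 tested demethylase genes 9 were positive and 7 negative (median 0.05). An estimated change of at least 2-fold was seen in 3 members, beside 2.78% of all tested genes.

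The position of SGC707 C among the members tended to follow transcript GC content, most clearly at high and low GC. In all 12 members with at least 55% GC, SGC707 C was below both SGC707 A and B, with a median log2 ratio of -0.64, and in all 13 with under 45% GC it was above both, with a median of 0.44. The 18 members between these limits were mixed, with SGC707 C below both in 6 and above both in 11. Their log2 ratios ran from -1.16 to 0.62, with SETD6 (46.7% GC) at -1.16 and KMT2A (46.9% GC) at -0.96. The limits of 55% and 45% were chosen after these values were seen. Across the 43 members, which share the 6 libraries, the log2 ratio of SGC707 C to the mean of A and B had a Pearson r of -0.709 and a Spearman rho of -0.750 with GC content. For DMSO C against DMSO A and B these were -0.429 and -0.312. The estimated SGC707 effect had a Pearson r with GC of -0.312 and a Spearman rho of -0.254 on all libraries. Without SGC707 C these were 0.0207 and 0.144. The part of GC content in these results was not tested beyond a fit that corrects for GC content and length. That fit called 0 members, against 0.508% of all genes (0.0738% higher and 0.435% lower), and had 9 members, 3 higher and 6 lower, at an unadjusted p under 0.05, or 20.9% against 23.9% (11.1% higher and 12.9% lower). KMT2E stood at -1.27 in it, KDM6B at -1.37, SETD1A at -0.70, SETD1B at -0.78 and SETD6 at 1.08 on the log2 scale, with edgeR adjusted p of 0.0580, 0.0650, 0.102, 0.0759 and 0.125. KMT2E, at 43.2% GC, is the member whose SGC707 C value lay farthest above SGC707 A and B.

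**Figure D4:**
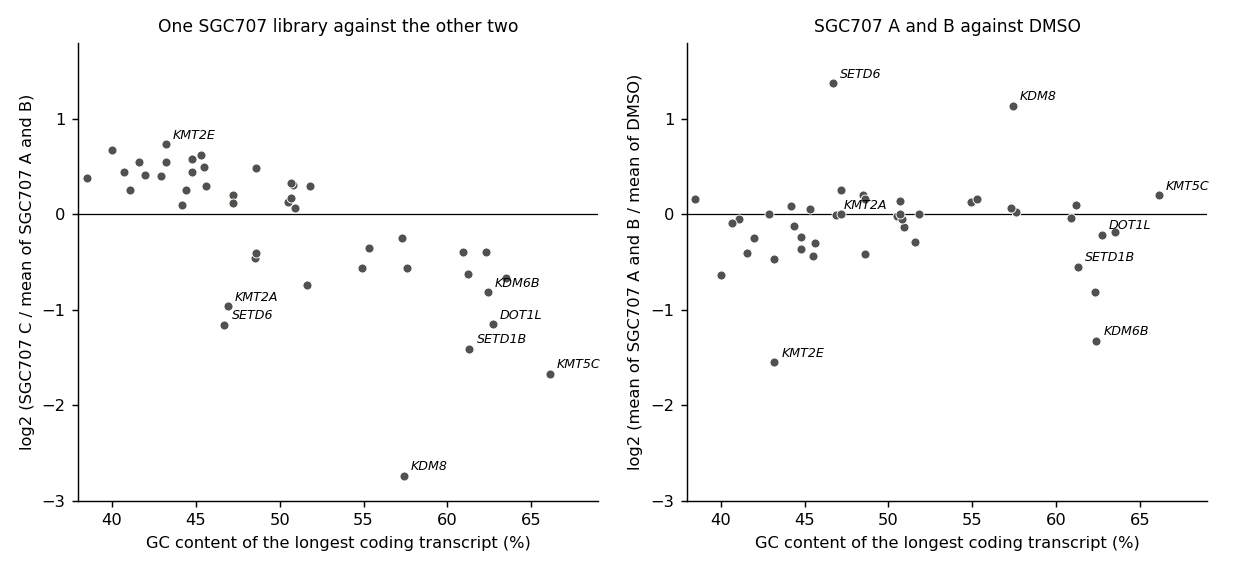
Each point is 1 of the 43 tested members, placed by the GC content of its longest coding transcript (%). The left panel gives the log2 ratio of SGC707 C to the mean of SGC707 A and B, which goes from a median of 0.44 under 45% GC to -0.64 at 55% GC or more, and the right panel gives the log2 ratio of SGC707 A and B to DMSO, where KMT2E, KDM6B and SETD6 lie farthest from 0 together with the sparsely counted KDM8.

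Partner genes were counted from 7 lists with 69 tested genes, of which 0 passed at an adjusted p of 0.05 in edgeR, and 5 were higher and 8 lower at an unadjusted p under 0.05, beside 5.62% higher and 7.13% lower of all tested genes. The subunits shared by the H3K4 methyltransferase complexes had 5 positive and 5 negative values. MEN1, the menin gene, stood at 85.8 ± 17.7 and 48.7 ± 10.9 normalised CPM (SD, n = 3; log2 fold change -0.82, edgeR adjusted p = 0.262), and HCFC1 had -0.71 (edgeR adjusted p = 0.275). Of 13 tested lysine methyltransferase and demethylase genes outside the naming rule, 8 were positive and 5 negative. PRDM2, an H3K9 methyltransferase, stood at -0.60 on the log2 scale (edgeR adjusted p = 0.266) and PHF8, a demethylase of H3K9 and H4K20, had 0.42 (edgeR adjusted p = 0.380). Of 7 genes that make or recycle S-adenosylmethionine and its product, 4 were positive and 3 negative. MAT2B, the regulatory subunit of methionine adenosyltransferase, stood at 30.8 ± 8.91 and 47.5 ± 1.98 normalised CPM (SD, n = 3; log2 fold change 0.62, edgeR adjusted p = 0.308), and AHCY, which removes the product, had 0.41 (edgeR adjusted p = 0.558), or 0.65 without SGC707 C.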

How the data were processed

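Transcript levels were measured in 3 DMSO and 3 SGC707 libraries, grouped by the treatment in the labels. The authors deposited whole-number read counts per gene symbol, not scaled between libraries. HISAT2, StringTie and GRCh38 are named per the submitters' processing notes, and no source used here gives versions, annotation or strand setting. Floors (3 counts) cover counting error only, while the 95% intervals of fold changes include the spread among libraries. Libraries of 1 group differed by more than sampling noise in every pair (lowest chi-square over its degrees of freedom 11.9).

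The whole table was fitted in R 4.3.3 with edgeR 4.0.16 (filterByExpr, 12196 genes kept, TMM, robust glmQLFit, glmQLFTest, no covariate), and p-values were adjusted by Benjamini-Hochberg over all tested genes. Standard errors were derived from the estimate and its F statistic. The procedure was tested on simulated data. Coordinates, GC content and length of the longest coding transcript came from GENCODE release 29 (19271 symbols matched directly, 277 through a synonym, 62 unmatched), and promoters from RefSeq (GRCh38.p14). Alternatives were RLE, library totals, all genes unfiltered, a filter at 1 CPM in 3 libraries with a mean count of 50, limma-voom (limma 3.58.1), DESeq2 1.42.0, each library left out, the replicate letter as a block, no mitochondrial genes, a lowess correction for GC and length (span 0.3) and a threshold of 0.10. Members, lists and alternatives were chosen with earlier results of these data known. Named genes are the 10 members with the smallest p, the highest member of each role per kb and the 2 partner genes per list with the smallest p; other members were named to account for the whole family, and those with library values (such as KMT2A, SETDB1, SETDB2, SETD3, KMT5C, KDM5C and KDM8) were picked after their values were seen. Figures were drawn with matplotlib 3.10.9.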

Additional observations from a re-analysis of the deposited data

How the results depend on the processing

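With 1 library left out the number of members called at an adjusted p of 0.05 was 0 to 4, with 4 without SGC707 C, and the number at an unadjusted p under 0.05 was 4 to 14. DESeq2 called 4 members, and library totals alone called 9, with 25 at an unadjusted p under 0.05 and a median log2 fold change of 0.61, beside 0.69 over all genes. The correction for GC content and length gave 9 members at an unadjusted p under 0.05 and a median of 0.001, and together with the replicate block 9 and -0.011. With library totals KMT2E (-0.59), KDM6B (-0.77), SETD1A (-0.21) and SETD1B (-0.12) kept negative values. Every other member with a negative value turned positive. These included KDM2A (0.24), KMT2B (0.35), DOT1L (0.23), EHMT2 (0.55), EZH2 (0.51), SETD2 (0.40), SETD5 (0.41) and KDM3A (0.56). EHMT2 was 0.001 after the correction. Without the mitochondrially encoded genes, edgeR called 0 members, with 5 at an unadjusted p under 0.05 and a median log2 fold change of -0.074. With 1 library left out KMT5A ranged from -0.006 (without DMSO B) to 0.25, KDM1A from -0.049 (without SGC707 C) to 0.17, and KDM3A from -0.24 to 0.029 (without SGC707 A). Same-lettered libraries of the 2 groups deviated together with correlations of 0.0795, -0.0228 and 0.0998, so the letters were not taken as pairs; the fit with the replicate block called 0 members, with 7 at an unadjusted p under 0.05 and a median of -0.09. Of the 272 values of named members under the alternatives, 249 kept their direction and side of the threshold, 11 newly passed it and 12 changed sign.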
